A study of Arabidopsis thaliana with 6 samples.

Results

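The genes described here make indole glucosinolates, the tryptophan-derived defence compounds of cabbage-family plants. The rule that picked them names loci and uses no measured value, although it was set with earlier results of these data known. It takes 10 rows of the gene count table. The transcription factor genes are MYB34 (AT5G60890) and MYB51 (AT1G18570). The core enzyme genes are CYP79B2 (AT4G39950), CYP79B3 (AT2G22330), CYP83B1 (AT4G31500), SUR1 (AT2G20610) and UGT74B1 (AT1G24100). The ring-modifying enzyme genes are CYP81F1 (AT4G37430), CYP81F2 (AT5G57220) and CYP81F4 (AT4G37410). These genes are 10 of 37336 loci in each file, and all 10 had enough reads to be tested. The libraries came from Arabidopsis thaliana root tips, the outermost 0.5 mm of the primary root at 7 days, 3 from the hsl2 mutant and 3 from the wild type, both in the Col-0 accession. Both genotypes grew on vertical plates of sucrose-free agar with 16 h of light and 8 h of dark, and the labels name no allele of hsl2, no transgene and no treatment. HSL2 encodes a HAESA-type receptor kinase, and the study asked how its loss alters the shedding of root cap cells.

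Indole glucosinolates are built in 3 stages. CYP79B2 and CYP79B3 oxidise tryptophan to indole-3-acetaldoxime, which also feeds camalexin and auxin. CYP83B1, the carbon-sulfur lyase SUR1, the glucosyltransferase UGT74B1 and a sulfotransferase then finish the basic glucosinolate. CYP81F enzymes hydroxylate the indole ring, CYP81F1 and CYP81F2 at a ring carbon and CYP81F4 at the ring nitrogen, and methyltransferases cap the new hydroxyl group. The nitrogen-methoxylated product is typical of roots. MYB34 and MYB51 switch on the pathway, MYB34 mainly in roots and MYB51 mainly in shoots.

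Total counts ran from 15051468 to 20468890 per library. Markers of the labelled tissue were present: the 5 root cap genes and the 4 meristem and stem cell genes all had reads, although WOX5, which marks the stem cell organiser, stayed below 1 CPM (counts scaled to library size, with TMM factors). Summed root cap markers stood at 65.0 to 81.6 CPM in hsl2 and 86.0 to 141 CPM in wild type. In each genotype 1 library departed from the rest. The 6 green tissue genes summed to 83.0 CPM in hsl2 1, against 20.6 and 21.0 CPM in hsl2 2 and hsl2 3 and 14.1 to 23.4 CPM in wild type. That sum came mostly from LHCB1.3, RBCS1A and LHCB1.1, at 40.4, 16.7 and 11.8 CPM in hsl2 1. LHCA1, RCA and GAPA, at 5.84, 5.76 and 2.49 CPM there, were near their highest wild type values of 5.34, 6.19 and 2.34 CPM. The 6 root hair genes summed to 20.6 to 40.7 CPM in hsl2. In wild type they summed to 31.7 CPM in wild type 3 but 6.39 and 8.92 CPM in wild type 1 and wild type 2. HSL2 (AT5G65710) itself was at 9.06 ± 1.25 CPM in hsl2 and 7.61 ± 0.881 CPM in wild type (SD, n = 3 each), so its level does not check the genotype.

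CYP81F4, the enzyme gene for hydroxylation of the ring nitrogen, was the member with the lowest value in hsl2 relative to wild type, and the only one of the 10 whose libraries did not overlap between genotypes. The core enzyme genes and both MYB genes had overlapping libraries, with log2 fold changes (hsl2 over wild type throughout) between -0.31 and 0.13. Of the 10 members, 7 had a value below 0 and 3 above 0, against 8714 below and 9275 above 0 of all 17989 genes tested. The median was -0.16 for the members and 0.01 for all genes tested. CYP83B1 and MYB51 among the 7, and SUR1 and UGT74B1 among the 3, changed sign in some fits with 1 library left out. By edgeR's quasi-likelihood test, 0 members passed an adjusted p of 0.05, as did 0 of all genes (0% called), while DESeq2 called 1 member, CYP81F4, and 1.62% of all genes. At an unadjusted p under 0.05 there was 1 member, CYP81F4, against 13.5% of all genes, 6.01% lower and 7.53% higher in hsl2. Members without overlap numbered 1 of 10, against 20.7% of all genes, or 9.44% lower and 11.3% higher in hsl2, so the share of members was not above that of genes at large. In these whole-tissue libraries, fewer cells of a type and less RNA per cell cannot be told apart.

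**Figure D1:**
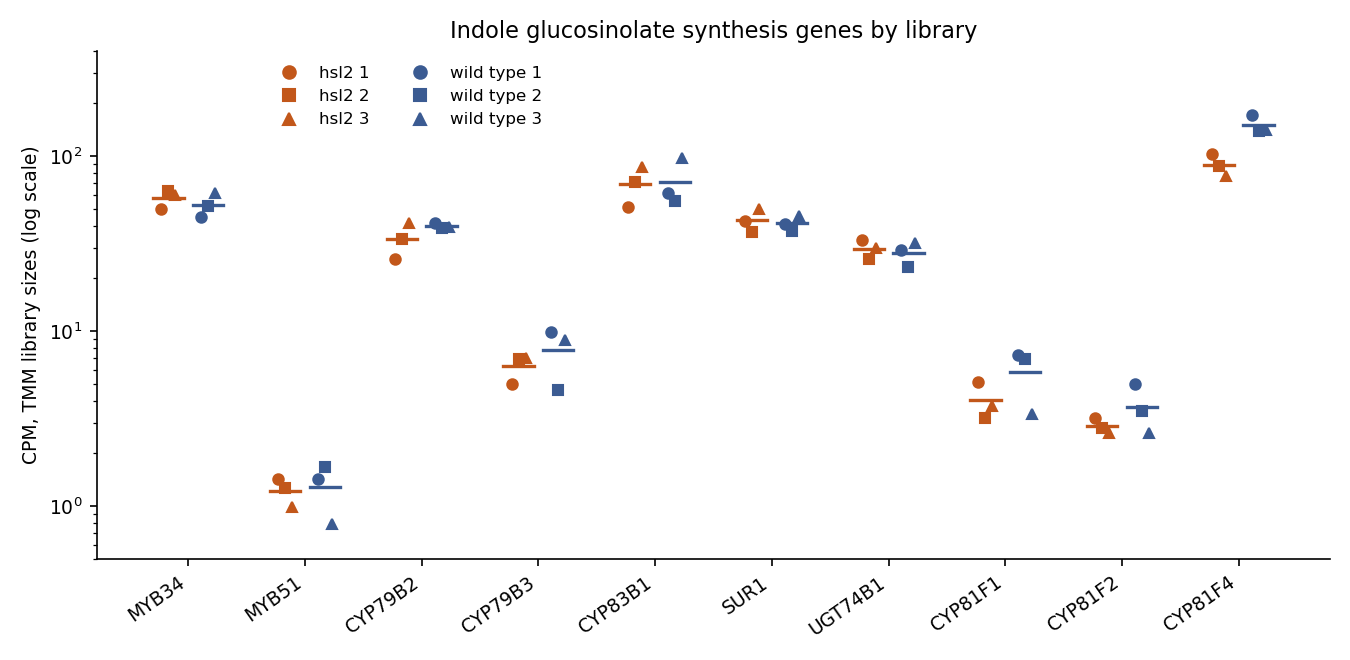
Level of each of the 10 genes in each library, in CPM on a log scale, with genes ordered as regulators, core enzymes and ring-modifying enzymes. Points are single libraries (hsl2 left, wild type right) and bars are means of 3. The CYP81F4 points of hsl2, from 76.7 to 103 CPM, all lie below those of wild type, from 139.8 to 171 CPM, while every other gene has overlapping points.

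Among the regulators, MYB34 was above MYB51 in every library, also per length. MYB34 was at 50.0, 63.2 and 59.6 CPM in hsl2 1, 2 and 3, against 45.0, 51.9 and 61.3 CPM in wild type 1, 2 and 3. The ranges of the genotypes overlapped for most of their length, with wild type 3 between hsl2 2 and hsl2 3. The log2 fold change was 0.13 with a 95% interval of -0.22 to 0.47 (adjusted p = 0.716, edgeR), and it was 0.01 without wild type 1 and 0.25 without wild type 3. MYB51 was near the lower end of what these libraries can measure, with 13 to 29 reads per library. It stood at 1.42, 1.26 and 0.981 CPM in hsl2, against 1.43, 1.66 and 0.789 CPM in wild type. Wild type 3 was the lowest library and wild type 2 the highest, so the hsl2 values lay inside the wild type range. The log2 fold change was -0.08, with an interval from -0.92 to 0.75 that leaves changes of either sign possible. MYB34 made up 97.9 ± 0.591% of the summed reads of the pair in hsl2 and 97.5 ± 1.05% in wild type (SD, n = 3 each).

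CYP79B2 and CYP79B3, which catalyse the same entry step, stood at 15.7 ± 3.58 and 2.81 ± 0.505 CPM per kb in hsl2 and at 18.6 ± 0.621 and 3.48 ± 1.24 CPM per kb in wild type (SD, n = 3 each). CYP79B2 was at 26.0, 33.5 and 41.3 CPM in hsl2, against 41.2, 38.6 and 39.6 CPM in wild type. The wild type libraries lay close together while the hsl2 libraries spread over a range of 45.6% of their mean, against 6.61% in wild type. Both hsl2 1 and hsl2 2 were below all of wild type, hsl2 1 the lowest, and hsl2 3 was level with wild type 1. The log2 fold change was -0.24 ± 0.17 (SE, edgeR adjusted p = 0.528), or -0.12 without hsl2 1, the library with the highest green tissue sum, and -0.42 without hsl2 3. CYP79B3 was at 4.98, 6.88 and 7.00 CPM in hsl2, against 9.83, 4.61 and 8.92 CPM in wild type. Its lowest and highest libraries were both wild type, and the log2 fold change was -0.31 ± 0.28 (SE, edgeR adjusted p = 0.623), or -0.12 without wild type 1 and -0.57 without wild type 2. CYP79B2 supplied 84.1 ± 1.28% of the summed reads of the pair in hsl2 and 83.9 ± 4.72% in wild type (SD, n = 3 each). Their longest transcripts in the RefSeq annotation share no exact stretch longer than 32 bases.

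Of the 3 later core enzymes, CYP83B1 varied most between libraries and SUR1 and UGT74B1 least. CYP83B1, which draws the aldoxime into glucosinolates, was at 51.4, 71.2 and 86.4 CPM in hsl2, against 61.8, 55.6 and 97.0 CPM in wild type. Wild type 3 was the highest library and hsl2 1 the lowest. The summed root hair markers of wild type 3, 31.7 CPM, were above the other wild type libraries (6.39 and 8.92 CPM). They were below hsl2 2 and hsl2 3 (36.9 and 40.7 CPM). The highest green tissue sum was that of hsl2 1. The log2 fold change was -0.04 with a 95% interval of -0.57 to 0.50 (adjusted p = 0.957, edgeR). It turned to 0.11 without hsl2 1, to 0.25 without wild type 3 and to 0.42 without both (adjusted p = 0.0595, edgeR), so its direction rests on those libraries.

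SUR1, which cleaves the carbon-sulfur bond, was at 42.8, 36.7 and 49.7 CPM in hsl2, against 41.1, 37.3 and 45.2 CPM in wild type. UGT74B1, which adds the glucose, was at 33.0, 25.7 and 29.8 CPM in hsl2, against 29.0, 23.2 and 31.7 CPM in wild type. In both genes the libraries of the genotypes were interleaved. The log2 fold changes were 0.06 for SUR1 and 0.08 for UGT74B1, with 95% intervals of -0.27 to 0.39 and -0.28 to 0.43 (adjusted p = 0.871 and 0.848, edgeR). For 7 members, MYB34, MYB51 and the 5 core enzyme genes, a change of 2-fold in either direction lies outside the 95% interval. For 4 of them, MYB34, CYP83B1, SUR1 and UGT74B1, so does a change of 1.5-fold. These intervals are those of the fit on all 6 libraries. The limits depend on the libraries used, and not for CYP83B1 alone. Its log2 fold change was 0.42 ± 0.12 (SE, edgeR) without both hsl2 1 and wild type 3. That of CYP79B3 was -0.57 ± 0.22 (SE, edgeR) without wild type 2. Without wild type 3, MYB51 had -0.33 ± 0.36 and MYB34 had 0.25 ± 0.16 (SE, edgeR).

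**Figure D2:**
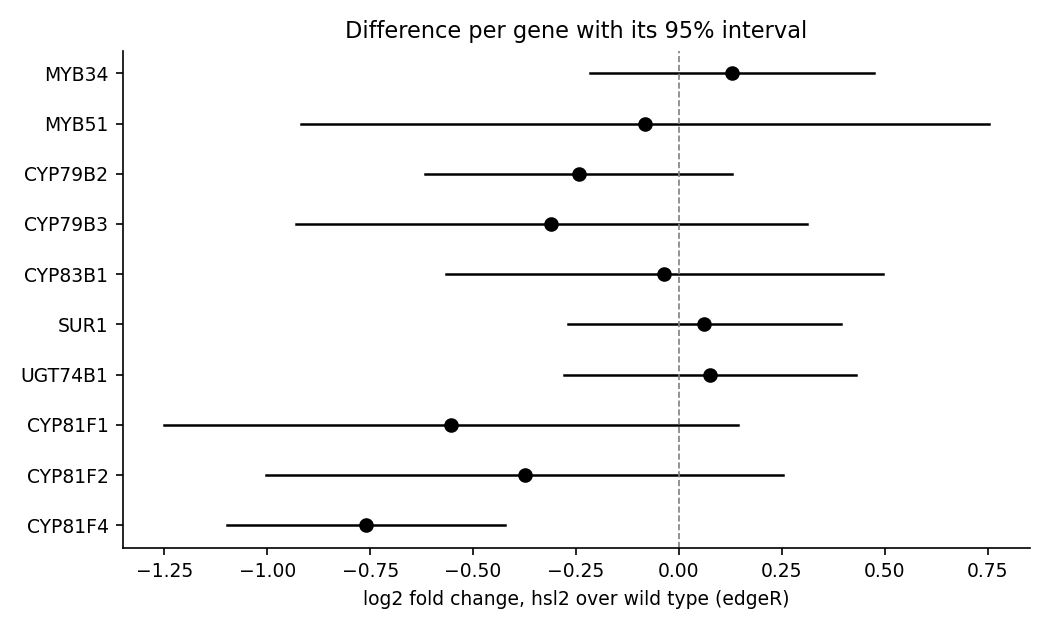
Log2 fold change of hsl2 over wild type for each gene (point) with its 95% interval (line), from the edgeR fit on 3 libraries per genotype. The interval of CYP81F4, -1.10 to -0.42, does not reach 0, and the other 9 intervals include it.

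Of the CYP81F genes, only CYP81F4 had libraries that separated by genotype. It was at 103, 87.8 and 76.7 CPM in hsl2, against 171, 139.8 and 141 CPM in wild type, from 1172 to 3476 reads per library. All 3 hsl2 libraries were below all 3 wild type libraries, with a gap between hsl2 1 and wild type 2 that exceeded the spread within hsl2. The means were 89.0 ± 13.0 CPM in hsl2 and 151 ± 17.5 CPM in wild type (SD, n = 3 each). The log2 fold change was -0.76 with a standard error of 0.15 and a 95% interval of -1.10 to -0.42, or 59.0% of the wild type level. CYP81F4 had the 65th smallest p of 17989 genes and did not pass after adjustment (adjusted p = 0.138, edgeR). DESeq2 called it on the same counts (adjusted p = 0.00145), where it called 1.62% of all genes, 0.706% lower in hsl2. The edgeR fit called it without the filter on low counts (adjusted p = 0.0379, 0.455% of genes called, 0.252% lower in hsl2) and without both hsl2 1 and wild type 3 (log2 fold change -0.92, adjusted p = 0.00374, 7.2% of genes called, 2.72% lower in hsl2). Over the 14 alternative settings the log2 fold change stayed between -0.92 and -0.66, and the adjusted p ran from 0.00145 to 0.611.

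CYP81F1 and CYP81F2, which act on a ring carbon, were low in both genotypes and their libraries overlapped. CYP81F1 was at 5.12, 3.19 and 3.73 CPM in hsl2, against 7.28, 6.89 and 3.34 CPM in wild type. Wild type 3 lay among the hsl2 libraries, while wild type 1 and wild type 2 were above all of them. The log2 fold change was -0.55 ± 0.31 (SE, edgeR adjusted p = 0.455). It was -0.36 without wild type 1, -0.40 without hsl2 2 and -0.83 without wild type 3. Without both hsl2 1 and wild type 3 it was -1.04 and CYP81F1 passed (adjusted p = 0.0211, edgeR). That fit called 7.2% of all genes, 2.72% lower in hsl2. CYP81F2, known from defence of leaves against fungi, was at 3.20, 2.78 and 2.62 CPM in hsl2, against 4.97, 3.51 and 2.61 CPM in wild type. Again wild type 3 was at the hsl2 level, and the log2 fold change was -0.37 ± 0.28 (SE, edgeR adjusted p = 0.560), or -0.11 without wild type 1 and -0.57 without wild type 3.

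CYP81F3 (AT4G37400), which is not a member but sits in the same tandem group as CYP81F1 and CYP81F4 and acts on a ring carbon, had a log2 fold change of -0.01 with a 95% interval of -0.41 to 0.39. It was at 43.6, 29.6 and 32.1 CPM in hsl2, against 33.6, 41.4 and 31.0 CPM in wild type. Of the summed reads of CYP81F1 to CYP81F4, CYP81F4 took 66.4, 71.1 and 66.6% in hsl2, against 78.9, 73.0 and 79.3% in wild type. The share of CYP81F3 was 26.7 ± 2.33% in hsl2 and 18.2 ± 3.14% in wild type (SD, n = 3 each), without overlap. Both are parts of the same sum, so a lower CYP81F4 share raises that of CYP81F3, and this is no separate result. The longest exact stretch that the CYP81F4 transcript shares with CYP81F3 is 35 bases, with CYP81F1 34 bases and with CYP81F2 14 bases. Shorter reads or reads with mismatches could still be split among the tandem genes, so the CYP81F values carry that uncertainty.

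Ratios within a library do not depend on how libraries are scaled. CYP81F4 was set against the other members because it had the lowest log2 fold change, and it was the only member without overlap. Lower mean ratios in hsl2 follow from that choice, which also favours ratios without overlap, so neither is separate support. No share over all genes was computed for such ratios. For 5 of the 9 the ratios did not overlap between genotypes: SUR1, UGT74B1, CYP81F2, MYB34 and MYB51. There were 1.58 ± 0.416 reads of CYP81F4 per read of MYB34 in hsl2 and 2.93 ± 0.774 in wild type (SD, n = 3 each). Relative to SUR1 the ratio was 2.11 ± 0.493 in hsl2 and 3.68 ± 0.516 in wild type (SD, n = 3 each). The ratios to CYP79B2, CYP79B3, CYP83B1 and CYP81F1 overlapped. Against CYP81F3 it was 2.35, 2.96 and 2.39 in hsl2 and 5.09, 3.38 and 4.57 in wild type, with no overlap. Against IGMT5, the methyltransferase gene of the step after CYP81F4, it was 0.993, 1.36 and 1.29 in hsl2 and 1.57, 1.73 and 1.89 in wild type, again apart. For each ratio without overlap the exact permutation test gave p = 0.1, the smallest that 3 against 3 libraries allow. After adjustment over the 11 ratios it was 0.157.

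**Figure D3:**
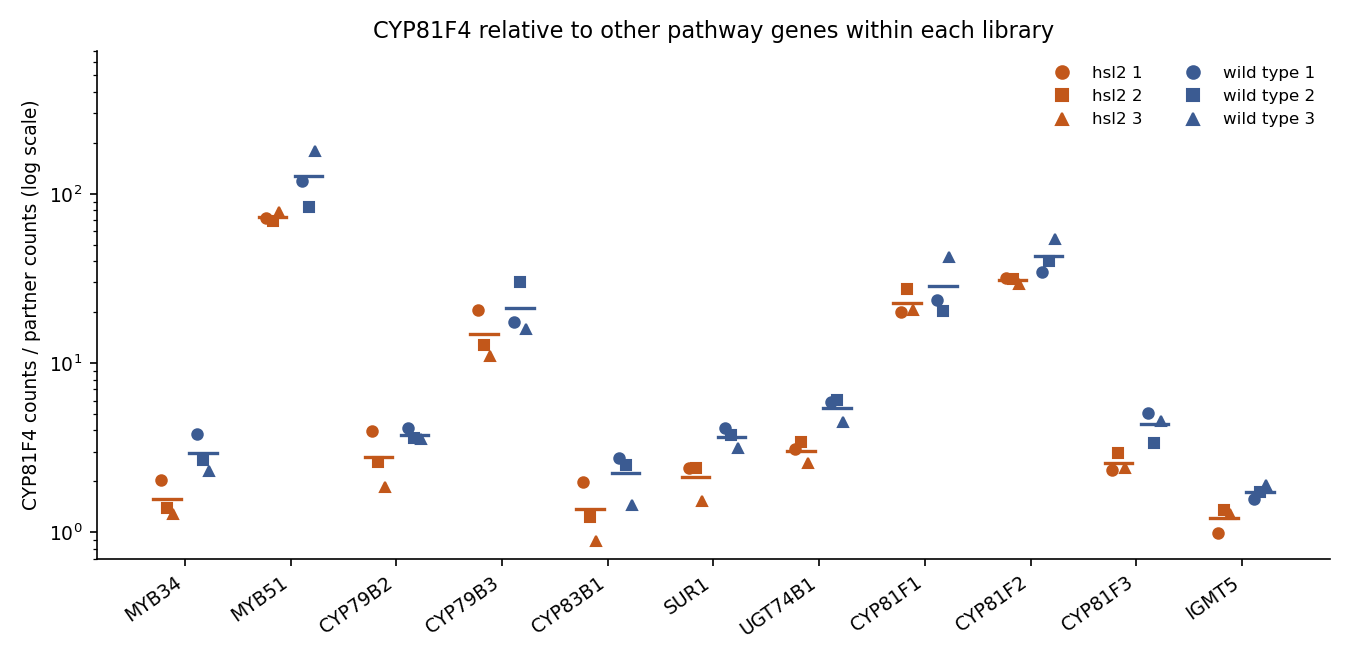
Counts of CYP81F4 divided by counts of another pathway gene in the same library, on a log scale, for the 9 other members, CYP81F3 and IGMT5. Points are single libraries (hsl2 left, wild type right) and bars are means of 3. For MYB34, MYB51, SUR1, UGT74B1, CYP81F2, CYP81F3 and IGMT5 all hsl2 points lie below all wild type points.

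Of the 5 root cap markers 0 passed by edgeR, 3 were lower in hsl2 at an unadjusted p under 0.05 (6.01% of all genes), and DESeq2 called 1, RCPG (1.62% of all genes). RCPG, which encodes a pectin-cutting polygalacturonase of outer cap cells, was at 15.2, 11.4 and 6.54 CPM in hsl2 1, 2 and 3, against 39.6, 47.9 and 20.5 CPM in wild type. Its log2 fold change was -1.70 (adjusted p = 0.138 with edgeR, 0.000121 with DESeq2). All 5 root cap markers had log2 fold changes below 0 (median -0.57), and their summed level was 65.0, 81.6 and 72.2 CPM in hsl2 1, 2 and 3, against 122, 141 and 86.0 CPM in wild type 1, 2 and 3. The libraries of RCPG and BRN2 did not overlap between genotypes, 2 of 5 genes against 9.44% of all genes lower without overlap, and those of SMB, BRN1 and FEZ did. The 6 root hair markers, all detected, summed to 20.6, 36.9 and 40.7 CPM in hsl2 1, 2 and 3, against 6.39, 8.92 and 31.7 CPM in wild type 1, 2 and 3. The 4 endodermis and xylem markers summed to 14.9, 18.0 and 19.0 CPM in hsl2 1, 2 and 3, against 12.0, 8.98 and 18.3 CPM in wild type 1, 2 and 3. All 4 had log2 fold changes above 0 (median 0.27), with 0 at an unadjusted p under 0.05 (edgeR). The part of root cap, root hair, endodermis and xylem cells in the CYP81F4 values was not tested.

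Per length, using the longest transcript in the RefSeq TAIR10.1 annotation, the members spanned a wide range of levels, and the order was nearly the same in both genotypes. CYP81F4 stood first, with 51.7 ± 7.54 CPM per kb in hsl2 and 87.5 ± 10.2 CPM per kb in wild type (SD, n = 3 each). CYP83B1 followed, with 36.7 ± 9.25 in hsl2 and 37.6 ± 11.8 CPM per kb in wild type. The ranges of these genes were apart in wild type and overlapped in hsl2. MYB34 came next, with 32.4 ± 3.85 CPM per kb in hsl2 and 29.7 ± 4.61 in wild type, a level not told apart from CYP83B1 in either genotype. SUR1 stood below and was apart from MYB34 above it and from the next gene below it. CYP79B2 and UGT74B1 overlapped with each other and were the only pair to exchange ranks, with UGT74B1 above in hsl2 and CYP79B2 above in wild type. After a gap came CYP79B3, CYP81F1 and CYP81F2, each overlapping with its neighbour, at 1.62 to 2.81 CPM per kb on average in hsl2 and 2.09 to 3.48 in wild type. MYB51 was last and apart, at 0.685 ± 0.125 CPM per kb in hsl2 and 0.724 ± 0.253 in wild type (SD, n = 3 each). Together the 10 members took 0.0331 ± 0.00285% of all reads in hsl2 and 0.0409 ± 0.00356% in wild type, without overlap. Without CYP81F4 the shares were 0.0244 ± 0.00378% in hsl2 and 0.0256 ± 0.00375% in wild type, with overlap (SD, n = 3 each).

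Patterns over the 6 libraries were compared by the root mean square difference of log2 CPM centred on each gene's mean, among genes of at least 5 CPM on average. CYP81F1 had the widest spread of the members, an SD of 0.51 on the log2 scale. The nearest genes were AT3G03060, MTHSC70-2 (AT5G09590), G-TMT (AT1G64970), AT5G05180 and AT1G65030, at distances of 0.14 to 0.16 on the log2 scale. For CYP81F4, added after its values were seen, they were AT1G01500, the clock regulator gene PRR5 (AT5G24470), AT5G10370, AT1G03220 and AT2G03975, at 0.10 to 0.11.

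The rest of the pathway was read from 7 lists of loci. In tryptophan synthesis, upstream of the members, all 10 genes were tested and 0 passed (edgeR, unadjusted p under 0.05 also 0). Their median log2 fold change was 0.05. ASA1, the feedback-regulated first step, was at 34.2 ± 2.55 CPM in hsl2 and 39.6 ± 5.40 in wild type (SD, n = 3 each). ASB1, PAI1 and TSB2 had log2 fold changes of 0.18, -0.17 and -0.21.

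Of the 13 other genes of core and side chain steps 9 were tested. Their median log2 fold change was 0.19, with 7 above 0 and 0 past the adjusted threshold. At an unadjusted p under 0.05 (edgeR), 2 of the 9 were higher in hsl2, against 7.53% of all genes. Higher without overlap were 3 of the 9, against 11.3% of all genes. GSTF10, a glutathione transferase gene placed at the conjugation step, was at 409.7 ± 62.0 CPM in hsl2 and 267 ± 26.1 in wild type (SD, n = 3 each), without overlap (log2 fold change 0.62, edgeR adjusted p = 0.201, DESeq2 adjusted p = 0.0186). The peptidase genes GGP3 and GGP1, which process that conjugate, had 0.37 and 0.34, also without overlap, and GSTF9 had 0.44 with overlap. The sulfotransferase gene SOT16 and the sulfate donor genes APK1 and APK2 had 0.19, 0.14 and 0.06. IGMT5 was at 75.8 ± 23.9 CPM in hsl2 and 88.1 ± 18.4 in wild type (log2 fold change -0.22, SD, n = 3 each), with hsl2 1 at 103 CPM inside the wild type range. Without hsl2 1 and wild type 3 its log2 fold change was -0.61 (adjusted p = 0.0293, edgeR). That fit called 7.2% of all genes, 2.72% lower in hsl2. IGMT1 to IGMT4, methyltransferase genes related to IGMT5, had at most 9 reads in a library and were not tested.

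MYB122, the remaining MYB of this branch, and MYC5 had at most 0.213 CPM. MYC2, MYC3 and MYC4, partners of the MYB factors, had log2 fold changes of -0.17, -0.28 and 0.08, and OBP2 and IQD1 had 0.32 and 0.12, so that 5 of 7 other regulators were tested and 0 passed (edgeR, unadjusted p under 0.05 also 0). Genes of aliphatic, methionine-derived glucosinolates were mostly too low to test: 7 of 27 were tested and 0 passed (edgeR, unadjusted p under 0.05 also 0), and MYB29, MYB76 and CYP79F1 had 0 reads throughout (3 reads, the limit a count of 0 allows, correspond to 0.148 to 0.213 CPM). SOT18, GSTU20, FMO-GS-OX5 and IPMI-LSU1 had log2 fold changes of 0.45, -0.34, 0.17 and 0.08. In the list of camalexin and other aldoxime products 6 of 10 were tested, with a median of -0.01 and 0 at an unadjusted p under 0.05 (edgeR). CYP71B6, NIT1, NIT3 and WRKY33 had 0.28, -0.35, 0.12 and -0.14.

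Genes of glucosinolate breakdown had the lowest median of these lists, -0.51 over 9 tested of 14. At an unadjusted p under 0.05, 5 were lower and 1 higher in hsl2 (6.01% and 7.53% of all genes), and 0 passed after adjustment by edgeR. The root myrosinase genes TGG4 and TGG5 were at 27.5 ± 9.26 and 33.2 ± 11.2 CPM in hsl2 and at 95.9 ± 33.6 and 104 ± 37.3 CPM in wild type (SD, n = 3 each). Their log2 fold changes were -1.80 and -1.64 (adjusted p = 0.117 and 0.133 with edgeR, 3.12e-07 and 1.08e-05 with DESeq2). They share exact stretches of up to 187 bases, so their reads cannot be fully told apart. NSP5, a nitrile specifier gene, and PYK10, the beta-glucosidase gene of the endoplasmic reticulum bodies, had -0.62 and -0.51 (adjusted p = 0.140 and 0.237 with edgeR, 0.00129 and 0.0265 with DESeq2). The other lower gene was NSP1 (log2 fold change -0.69) and the higher one NSP3 (1.87, at most 5.89 CPM), named after their values were seen. Among the 4 transport genes, the ABC transporter gene PEN3 and the glucosinolate importer gene GTR2 had -0.70 and -0.75 without overlap between genotypes. Those are 2 of 4, against 9.44% of all genes lower without overlap. GTR1 and GTR3 had 0.45 and 0.30 with overlap. By edgeR 0 of the 4 passed, and 2 were lower at an unadjusted p under 0.05 (6.01% of all genes). DESeq2, which called 1.62% of all genes, called 4 breakdown genes and GSTF10, and 0 genes in 5 of the 7 lists.

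**Figure D4:**
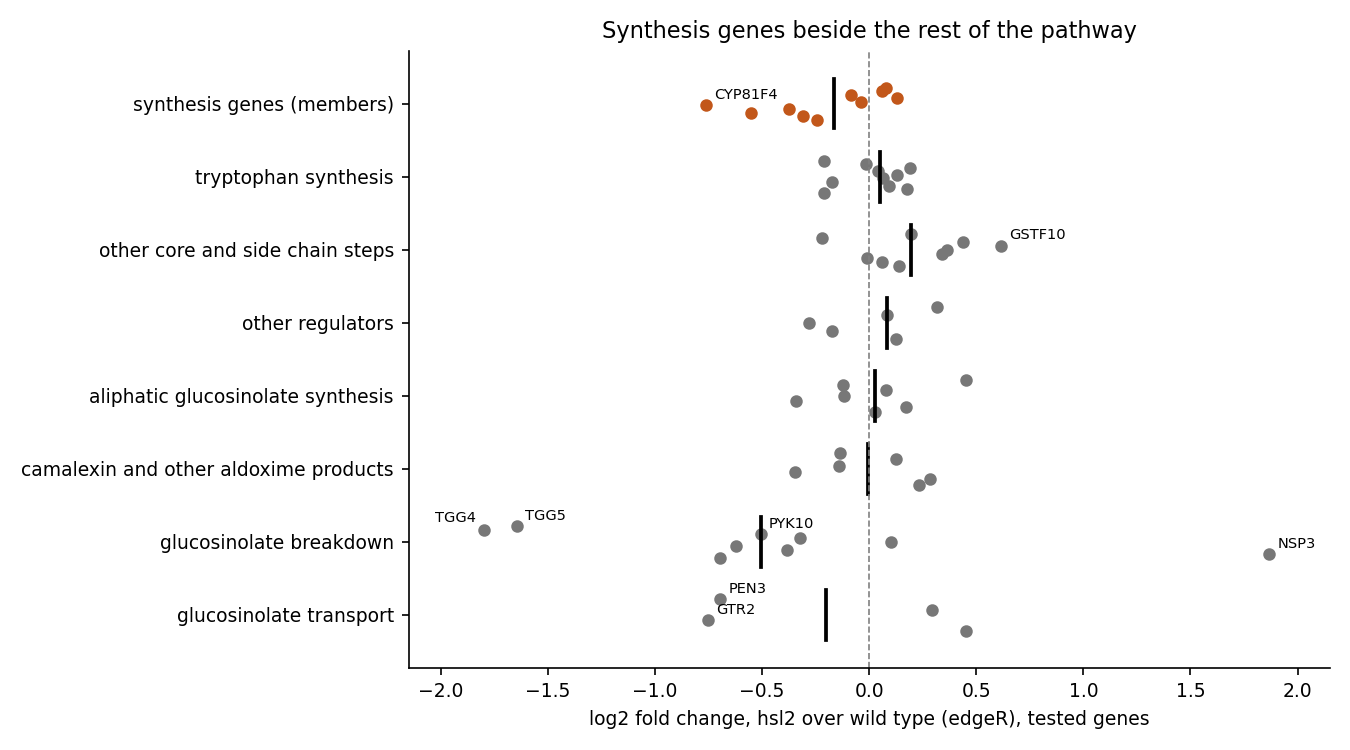
Log2 fold change of hsl2 over wild type (edgeR) for every tested gene of the synthesis members (orange) and of 7 further pathway lists (grey), with the median of each list as a black bar. The breakdown list has the lowest median, -0.51, led by TGG4 and TGG5, while the synthesis members have -0.16, with CYP81F4 at the lower end.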

How the data were processed

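The deposited values were raw counts of reads per gene, 1 file for each of the 6 libraries, made by the authors with Trimmomatic 0.33, STAR 2.5.1b and featureCounts per the submitters' processing notes. Libraries were stranded Illumina TruSeq libraries of total RNA per the labels' protocols. The genome build, annotation and strand setting are not given in the sources used, so no coordinates or sequences are printed. Lengths and shared stretches came from RefSeq (TAIR10.1), where all 120 listed loci matched.

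Counts were fitted on all 6 libraries with edgeR 4.0.16 in R 4.3.3 (filterByExpr, TMM, quasi-likelihood F-test, genotype as the only term, 4 residual degrees of freedom), with Benjamini-Hochberg adjustment over 17989 genes and a threshold of 0.05. Standard errors came from the F statistic. Alternatives used DESeq2 1.42.0, limma-voom (limma 3.58.1), other normalizations, other filters, the replicate number as a block, and libraries left out. The fits were tested on simulated data. No library duplicated another (chi-square per degree of freedom at least 6.17). By that measure wild type 3 was nearer to hsl2 2 and hsl2 3 (13.3 and 12.7) than to wild type 1 and wild type 2 (17.0 and 21.5).

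The members, lists and alternatives were chosen with earlier results of these data known. All members were named, as were the 4 genes of smallest p in each list, core, side chain and regulator genes of at least 5 CPM on average, HSL2, and the 5 genes nearest in pattern to the member of widest spread. The labels do not say whether libraries of a genotype are separate cultures. The p-values thus reflect the variation among these libraries only, part of which may be technical. Count floors of 3 reads cover counting error only.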

Additional observations from a re-analysis of the deposited data

How the results depend on the processing

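The adjusted threshold was passed by 0 of all genes with edgeR, RLE or upper-quartile scaling, a filter of 1 CPM in 3 samples, and limma-voom. It was passed by 110 genes without a filter, 292 with DESeq2 and 1311 without both hsl2 1 and wild type 3, and by 0 to 55 when 1 library was left out (55 without wild type 3). Among the 10 members the count was 0, but 1 without a filter and 1 with DESeq2 (CYP81F4), and 2 without both hsl2 1 and wild type 3 (CYP81F1 and CYP81F4). Leaving out any 1 library gave 0 members. The direction was kept in all 14 alternatives for 6 members, but with 1 library left out the log2 fold change ran from -0.42 to -0.12 for CYP79B2 (without hsl2 3 and hsl2 1), -0.57 to -0.12 for CYP79B3 (without wild type 2 and wild type 1), -0.83 to -0.36 for CYP81F1 (without wild type 3 and wild type 1), -0.57 to -0.11 for CYP81F2 (without wild type 3 and wild type 1), 0.01 to 0.25 for MYB34 (without wild type 1 and wild type 3) and -0.90 to -0.66 for CYP81F4. With 1 library left out the log2 fold change ran from -0.22 to 0.25 for CYP83B1, from -0.054 to 0.17 for SUR1, from -0.041 to 0.18 for UGT74B1 and from -0.33 to 0.13 for MYB51. The sign turned without wild type 3 or hsl2 1 for CYP83B1 (0.42 without both), without wild type 2 or hsl2 3 for SUR1 and MYB51, and without wild type 2 or hsl2 1 for UGT74B1. None of these members passed the edgeR threshold in any of those fits, and the cause was not tested. With the replicate number as a block, 52 genes and 0 members passed, with CYP81F4 at -0.76 (adjusted p = 0.0587, edgeR). The deviations of same-numbered libraries correlated at 0.14, 0.06 and 0.02 across genes, and those of differently numbered libraries at -0.17 to 0.06. These values do not decide whether the numbers pair the samples. Nothing in the labels says that they mark a shared growth, batch or day, so no pairing was used in the main fit. The order of the levels had 0 changed ranks with the length of all exons in place of the longest transcript. MYB51, with 13 to 29 reads per library, is limited by depth.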
